A study of Mus musculus with 4 samples.

Results

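Proteasome genes were read in spatial transcriptomes of mouse brain. A gene was included when its symbol began with Psma, Psmb, Psmc, Psmd, Psme, Psmf or Psmg followed by a digit, which gave 48 of the 19465 listed genes. Psmb8, Psmb9, Psmb10, Psme1 and Psme2, the 5 genes of the immunoproteasome and its 11S activator, were set apart from the other 43. Psmc3ip entered by its symbol alone and encodes no proteasome subunit. Psmb1 and Psmd11 were not analysed here.

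Visium arrays had been used on formalin-fixed, paraffin-embedded brain sections of 5 µm, with 2 control and 2 rNLS8 mice, 1 section each. All 4 mice were 11 weeks old, and the series describes the sections as taken 3 weeks after doxycycline withdrawal, a treatment that the labels give to controls and rNLS8 mice alike. In rNLS8 mice, doxycycline holds off a transgene for human TDP-43 without its nuclear import signal, driven from the neurofilament heavy chain promoter, so that withdrawal switches it on in neurons. The labels do not say which alleles the controls carry. Each group held a replicate 1 labelled female and a replicate 2 labelled male. Nothing beyond the titles says how the mice were paired, and with 1 section per mouse the spread includes both animal and section.

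The 26S proteasome is the main enzyme that degrades ubiquitin-tagged proteins in the cytosol and nucleus. Its 20S core is a barrel of alpha and beta rings whose catalytic subunits are encoded by Psmb5, Psmb6 and Psmb7, and the 19S cap of Psmc ATPases and Psmd subunits recognises, unfolds and feeds in substrates. Interferon can replace the catalytic subunits in newly assembled cores with those encoded by Psmb8, Psmb9 and Psmb10, and the PA28 ring of Psme1 and Psme2 products can then take the place of the cap. In brain this immunoproteasome is best known from microglia and from inflamed tissue.

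Between 2655 and 3810 spots were kept per section, with 17627535 to 28055286 UMI (molecules counted once) per section and a median of 5364 to 9776 UMI per spot. A Visium spot covers a small tissue area with several cells, so fewer cells of a type and less RNA per cell cannot be told apart. Tardbp, the TDP-43 gene, was at 0 and 0 UMI in the control sections and at 197 and 138 in the rNLS8 sections. Whether these UMI came from the mouse gene or the human transgene was not tested. The 0 in controls is therefore not read as a lack of TDP-43 RNA. The section of rNLS8 replicate 1, labelled female, had Y-linked genes at 137 CPM (UMI scaled to the size of each library). The sections labelled male had 107 and 139, and the female control had 0. The sex label of rNLS8 replicate 1 thus goes against its counts, and the member calls, ratios and shares below were also run without it. By these counts only control replicate 1 lacked Y-linked UMI, so the groups were not balanced for sex. The part of sex in the differences between groups was not tested. The cortical, striatal, fibre tract and meningeal marker lists each led at least 1 cluster of spots. Clusters named from these markers gave 718 and 602 cortical spots in the control sections and 636 and 659 in the rNLS8 sections. Within the cortex, 1 cluster (995 spots) came mostly from rNLS8 sections (442 and 513 spots, against 19 and 21) and was led by immune genes such as Cst7 and Cxcl10. A second cluster (825 spots), with the layer marker Fezf2 among its leading genes, came mostly from controls (461 and 345, against 15 and 4). The third, upper-layer cluster held spots of every section (238, 236, 179 and 142). Cortical values therefore set different clusters side by side, and values from a coarser clustering, where the cortex was a single cluster, are given beside the main result.

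The promoters of 4 genes are printed because their products stand for the groups compared: Psmb8, the immunoproteasome gene that rose in rNLS8 cortex, Psmb9, its neighbour that just missed the threshold there, Psme1, an interferon-responsive activator gene whose groups overlapped, and Psmb5, the constitutive counterpart of Psmb8. Each window runs from 250 bases before to 50 bases after the annotated start, 5′ to 3′ on the gene's strand, from RefSeq (GRCm38.p6, the same assembly series as the mm10 build named in the labels). Capitals mark letters that match the interferon-stimulated response element core (GAAA, any 2 bases, GAAA), the gamma-activated site TTCNNNGAA or the antioxidant response element core TGACNNNGC, searched on both strands.
Psmb8, chr17:34197945-34198244, plus strand: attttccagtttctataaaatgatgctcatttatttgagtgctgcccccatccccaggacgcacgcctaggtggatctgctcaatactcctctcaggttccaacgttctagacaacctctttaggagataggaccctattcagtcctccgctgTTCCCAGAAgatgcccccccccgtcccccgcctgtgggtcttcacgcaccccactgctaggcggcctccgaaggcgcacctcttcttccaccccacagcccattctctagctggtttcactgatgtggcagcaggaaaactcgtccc
Psmb9, chr17:34187281-34187580, minus strand: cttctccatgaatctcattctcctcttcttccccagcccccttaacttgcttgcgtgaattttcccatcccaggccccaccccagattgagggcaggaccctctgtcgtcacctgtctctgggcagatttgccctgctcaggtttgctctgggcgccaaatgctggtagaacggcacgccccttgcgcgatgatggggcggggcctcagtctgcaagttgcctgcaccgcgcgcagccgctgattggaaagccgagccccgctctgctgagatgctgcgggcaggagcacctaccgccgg
Psme1, chr14:55578244-55578543, plus strand: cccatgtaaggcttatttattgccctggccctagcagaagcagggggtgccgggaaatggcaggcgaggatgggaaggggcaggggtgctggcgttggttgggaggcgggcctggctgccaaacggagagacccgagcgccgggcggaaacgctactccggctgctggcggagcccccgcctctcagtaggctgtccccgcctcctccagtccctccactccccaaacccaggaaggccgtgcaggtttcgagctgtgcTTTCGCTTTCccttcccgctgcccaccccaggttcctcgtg
Psmb5, chr14:54617946-54618245, minus strand: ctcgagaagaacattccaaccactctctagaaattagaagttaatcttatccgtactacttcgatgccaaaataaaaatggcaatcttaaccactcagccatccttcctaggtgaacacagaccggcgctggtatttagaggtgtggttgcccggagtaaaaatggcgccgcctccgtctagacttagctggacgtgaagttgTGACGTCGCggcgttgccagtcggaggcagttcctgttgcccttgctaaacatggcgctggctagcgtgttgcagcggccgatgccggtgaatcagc

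The Psmb8 window held a gamma-activated site, TTCCCAGAA, 97 bases before the start. The Psme1 window held a response element core read on the opposite strand, TTTCGCTTTC, in the bases after the start. The Psmb9 window held none of the 3 motifs. The Psmb5 window held the antioxidant core TGACGTCGC, 47 bases before the start. RefSeq windows were found for 41 of the 48 genes, 44 windows in all. The response element core was in 5 of these 44 (11.4%, against 3.44% of all 32851 windows), in Psmb3, Psmd4, Psmd9, Psme1 and Psmg4. The gamma-activated site was in 3 (6.82%, against 8.3%), in Psmb8, Psmd2 and Psmg1. The antioxidant core, which NFE2L1-type factors read, was in 6 (13.6%, against 12.4%), in Psmb5, Psmb6, Psmc6, Psmd12, Psmd9 and Psme4. A match describes letters only. Psmb8 and Psmb9 lie in the class II region of the mouse major histocompatibility complex on chromosome 17, at 34198195 to 34201454 and 34182030 to 34187330. The peptide transporter genes Tap1 and Tap2 lie between and beside them: the Psmb9 start is 226 bases from that of Tap1, and Tap1 ends 970 bases before Psmb8. Psmb10 lies apart from them, on chromosome 8 at 105935728 to 105938392.

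Psmb8 rose in rNLS8 cortex and was the only one of the 46 members tested there that did. It encodes beta5i, the chymotrypsin-like catalytic subunit that replaces the product of Psmb5. Cortical sums gave 4.93 and 5.15 CPM in controls and 17.5 and 24.0 CPM in rNLS8 sections. Both rNLS8 sections stood far above both controls, and rNLS8 replicate 2 was the highest. The fitted change was 4.08-fold, a log2 fold change of 2.03 (SE 0.285, adjusted p = 0.0257, edgeR quasi-likelihood test with Benjamini-Hochberg adjustment over all genes). Of 11871 genes tested in the cortex, 2.9% passed in either direction and 1.2% were higher in rNLS8, so 1 of 46 members is near the background. The call was lost without rNLS8 replicate 2 (log2 fold change 1.79, adjusted p = 0.0954) and in the upper-layer cluster alone (1.01, adjusted p = 0.238). The log2 fold change was 2.24 without rNLS8 replicate 1. It was 1.99 without control replicate 1, which leaves only sections with Y-linked UMI. The call held with the cortex as a single cluster (1.72, edgeR adjusted p = 0.0422).

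Psmb9 encodes beta1i, which replaces the product of Psmb6. Its cortical sums gave 2.26 and 2.16 CPM in controls and 6.60 and 8.10 CPM in rNLS8. The groups did not overlap, as for 55.7% of all genes tested, and the 3.3-fold difference missed the threshold (log2 fold change 1.72, SE 0.371, edgeR adjusted p = 0.057). Over the alternatives run, its adjusted p ranged from 0.0117 (without control replicate 2) to 0.481 (without rNLS8 replicate 2).

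Psmb10, which encodes beta2i, the third replacement subunit, did not share this direction. It gave 98.3 and 90.1 CPM in control cortex and 74.1 and 75.6 CPM in rNLS8 cortex. Both rNLS8 sections were below both controls, with a log2 fold change of -0.33 (SE 0.151, adjusted p = 0.254), so the difference did not pass. Without control replicate 2 it did (-0.43, edgeR adjusted p = 0.0207), in a fit that called 4067 genes.

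The PA28 activator genes gave no difference beyond the spread. Psme1 had 61.7 and 47.6 CPM in control cortex and 48.5 and 61.4 CPM in rNLS8. Psme2 had 6.99 and 7.48 CPM in controls and 9.07 and 6.92 CPM in rNLS8. For both genes the groups overlapped, with log2 fold changes of 0.01 (SE 0.203) and 0.15 (SE 0.304). Psme2b, a near-identical copy of Psme2 on chromosome 11, gave 2.06 and 2.00 CPM in controls and 3.85 and 3.71 CPM in rNLS8 (log2 fold change 0.90, SE 0.414, adjusted p = 0.259). Whether the probes tell Psme2b from Psme2 was not tested.

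**Figure D1:**
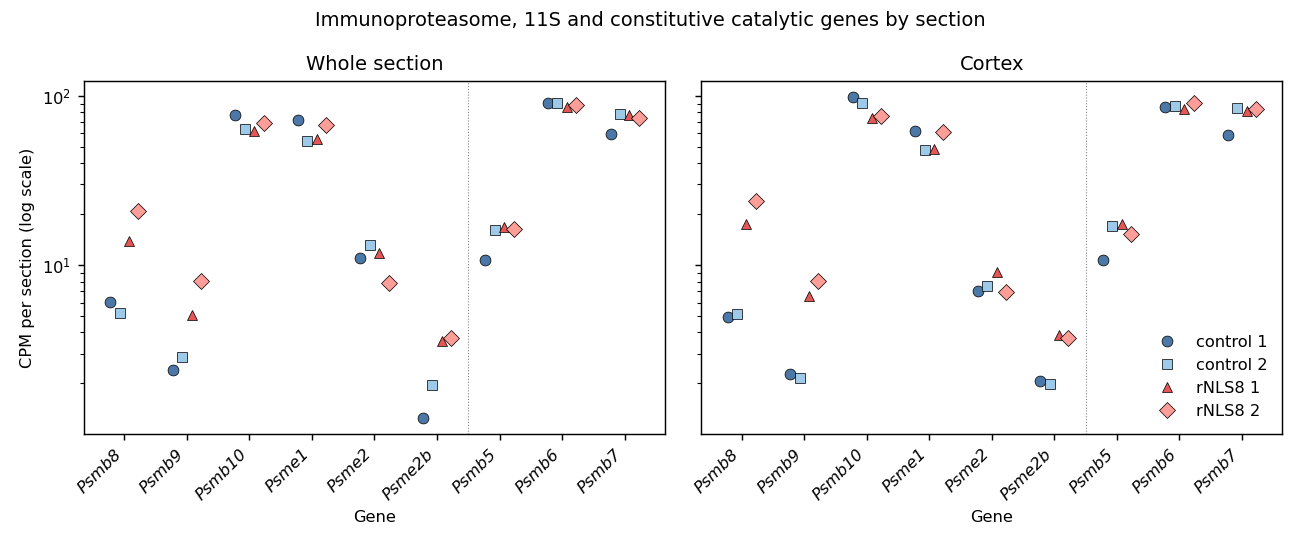
CPM of 9 proteasome genes on a log scale, in whole sections and in cortical spots, with 1 point per section and the constitutive catalytic genes right of the dotted line. Psmb8, Psmb9 and Psme2b are higher in both rNLS8 sections in both panels. In the cortex Psmb10 is lower in both rNLS8 sections, while Psmb5 to Psmb7 overlap between the groups.

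In whole sections the same 2 genes led, and no member passed. Psmb8 gave 6.05 and 5.20 CPM in controls and 13.8 and 20.8 CPM in rNLS8 sections, a log2 fold change of 1.62 (SE 0.281, adjusted p = 0.167). Psmb9 gave 2.40 and 2.88 CPM in controls and 5.08 and 8.09 CPM in rNLS8 (1.31, SE 0.345, adjusted p = 0.208). Psmb10, Psme1 and Psme2 overlapped between the groups, while 52.1% of all genes did not. The edgeR test called 0 of 13444 genes (0%) in whole sections, where 15.6% of genes and 6 of 48 members had an unadjusted p under 0.05. DESeq2 called 527 genes and, of the members, Psmb8 (adjusted p = 0.000236). Psmb8 was also called without rNLS8 replicate 1 (log2 fold change 1.88, adjusted p = 0.00817).

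The constitutive catalytic genes set the comparison for the replacement subunits. Psmb5 gave 10.7 and 17.0 CPM in control cortex and 17.6 and 15.4 CPM in rNLS8. Psmb6 gave 85.9 and 86.5 CPM in controls and 83.6 and 90.6 CPM in rNLS8. Psmb7 gave 58.6 and 85.1 CPM in controls and 81.4 and 83.4 CPM in rNLS8. All 3 overlapped between the groups, and their log2 fold changes were 0.25 (SE 0.282), 0.01 (SE 0.150) and 0.19 (SE 0.202). Control replicate 1 was the lowest section for Psmb5 and for Psmb7.

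Ratios of replacement to constitutive UMI within a section do not depend on library scaling, but probes differ between genes, so only their change can be read. Psmb8 to Psmb5 in whole sections was 0.561 and 0.321 in controls and 0.826 and 1.27 in rNLS8. Psmb9 to Psmb6 was 0.0265 and 0.0318 in controls and 0.0593 and 0.092 in rNLS8. Both ratios were higher in each rNLS8 section, by 1.27 and 1.35 on the log2 scale. Psmb10 to Psmb7 was 1.29 and 0.823 in controls and 0.805 and 0.932 in rNLS8, a log2 difference of -0.25 with overlapping groups. In cortical spots the 3 differences were 1.73, 1.71 and -0.55. The exact two-sided permutation test gave p = 0.667 for Psmb10 to Psmb7 in whole sections and p = 0.333 for every other ratio here, and 0.333 is the smallest p that 2 against 2 sections allow.

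The other 43 members showed no call in the cortex among the 41 tested. Their log2 fold changes ran from -0.63 to 0.90 with a median of 0.01, beside a median of 0.024 over all genes tested, and 38 of 41 lay within 0.5 of 0. Both rNLS8 sections were above both controls for 10 of them and below for 6, beside 29.1% and 26.6% of all genes.

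**Figure D2:**
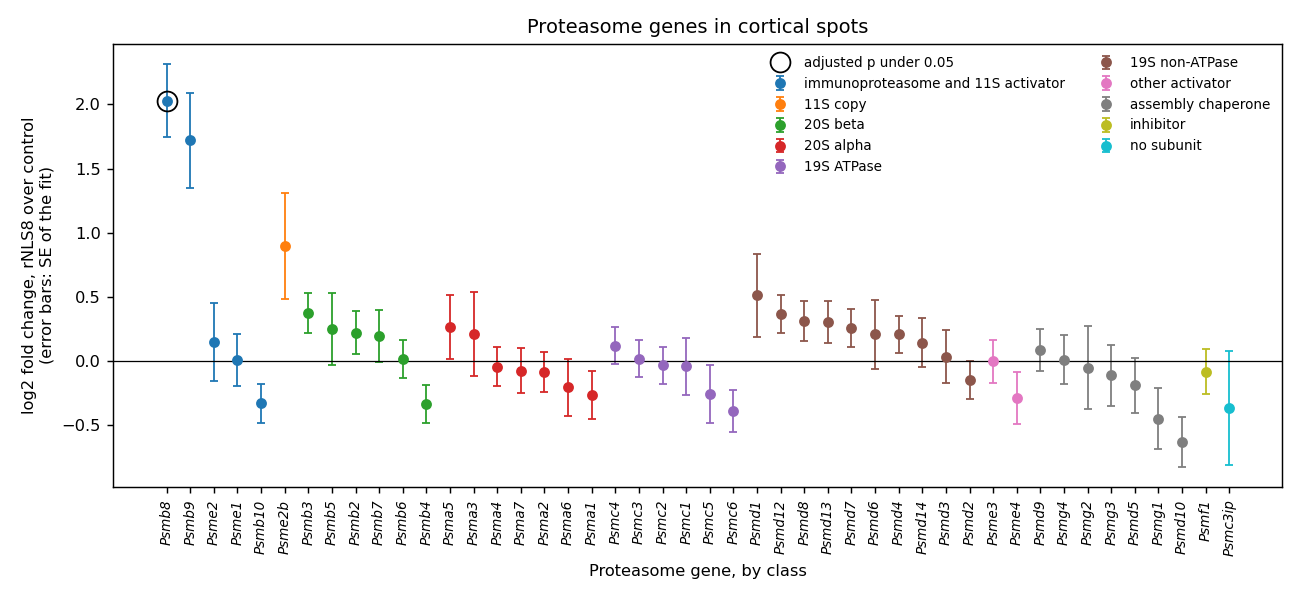
Log2 fold change of rNLS8 over control cortex for the 46 members tested, grouped by class, with standard errors of the fit and a ring around adjusted p under 0.05. Psmb8 and Psmb9 stand at 2.03 and 1.72, and 41 members lie within 0.5 of 0.

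Among the 20S core genes, the 7 alpha subunits tested, which form the outer gated rings, overlapped between the groups in every case, with log2 fold changes from -0.27 to 0.26. The 6 constitutive beta genes ran from -0.33 to 0.37. Psmb3, a non-catalytic beta subunit, gave 155 and 133 CPM in control cortex and 177 and 195 CPM in rNLS8 (0.37, adjusted p = 0.228). Psmb4, another, gave 377 and 381 CPM in controls and 287 and 314 CPM in rNLS8 (-0.33, adjusted p = 0.236). Neither passed, although the groups did not overlap for either.

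Of the 19S cap, the 10 non-ATPase genes had a median log2 fold change of 0.23, and 6 of them were higher in both rNLS8 sections, an order held by 29.1% of all genes. Psmd12, a scaffold subunit of the lid, gave 145 and 155 CPM in control cortex and 186 and 201 CPM in rNLS8 (0.36, adjusted p = 0.209). Psmd8, also of the lid, gave 58.6 and 66.2 CPM in controls and 77.3 and 77.5 CPM in rNLS8 (0.31, adjusted p = 0.294). Psmd1, the large scaffold of the base, gave 6.17 and 10.5 CPM in controls and 11.1 and 12.8 CPM in rNLS8 (0.51, adjusted p = 0.401). None of these differences passed. The 6 ATPase genes, whose ring unfolds substrates, had a median of -0.04. Psmc6 was the lowest of them, with 130 and 107 CPM in controls and 91.3 and 89.1 CPM in rNLS8 (-0.39, adjusted p = 0.221).

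The 7 assembly chaperone genes had a median of -0.11, with 3 below in both rNLS8 sections and none above, beside 26.6% and 29.1% of all genes. Psmd10 (gankyrin), which guides assembly of the ATPase ring, had the lowest value of all members tested. It gave 34.7 and 29.4 CPM in control cortex and 19.7 and 21.8 CPM in rNLS8, a log2 fold change of -0.63 (SE 0.195, edgeR adjusted p = 0.122). Psmg1, a chaperone of the alpha ring, gave 28.6 and 21.3 CPM in controls and 16.2 and 20.3 CPM in rNLS8 (-0.45, adjusted p = 0.315). Psmc3ip, which is no subunit, gave -0.36 with overlapping groups. In whole sections the members at the ends of the order were largely those of the cortex. After Psme2b (1.17), the highest outside the immunoproteasome were Psmd8 (0.41), Psmd1 (0.38), Psmb5 (0.29), Psma5 (0.28) and Psmd12 (0.25), and the lowest were Psmb11 (-0.60), Psmd10 (-0.47), Psmc6 (-0.41), Psmg1 (-0.40) and Psma1 (-0.29). Psmb11, a thymus subunit, gave 1.03 and 1.78 CPM in controls and 0.893 and 0.971 CPM in rNLS8. Without control replicate 2, Psma1, Psmc6 and Psmd10 passed as lower in whole sections, in a fit that called 1839 of 13610 genes. In the cortex that fit called 14 of 46 members and 4067 of 12159 genes, and the fit without control replicate 1 called 7 of 47 members and 1599 of 12291 genes, so the members' shares were near those of all genes.

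Across regions, Psmb8 was higher in both rNLS8 sections than in both controls in all 6 regions compared, but passed only in the cortex. The same order held for 25.2% of all genes in the striatum, 18.4% in the basal forebrain, 23.2% in the fibre tracts, 20.8% in the meninges and 24% in the claustrum. In the striatum it gave 7.16 and 4.40 CPM in controls and 12.5 and 14.9 CPM in rNLS8 (log2 fold change 1.25, SE 0.338, adjusted p = 0.156). The striatum joined 2 clusters that divided by group, one with 549 and 482 control against 55 and 44 rNLS8 spots and the other with 223 and 246 against 718 and 334. In the fibre tracts Psmb8 gave 7.63 and 4.78 CPM in controls and 17.4 and 22.2 CPM in rNLS8 (1.66, SE 0.457, adjusted p = 0.220). The basal forebrain gave 4.28 and 3.12 CPM in controls and 10.0 and 22.2 CPM in rNLS8 (1.81, adjusted p = 0.897), the last from 8 UMI in 51 spots. In meningeal spots, control levels were the highest of any region, with 21.3 and 15.9 CPM from 6 and 12 UMI, and the rNLS8 sections gave 26.7 and 45.7 CPM (1.08, adjusted p = 0.509). In the claustrum, where Psmb8 had too few UMI to be tested, it gave 3.79 and 5.00 CPM in controls and 5.98 and 8.35 CPM in rNLS8. Levels were scaled within each region separately.

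Psmb9 in the striatum gave 2.94 and 2.85 CPM in controls and 5.22 and 6.04 CPM in rNLS8 (0.94, adjusted p = 0.303), and elsewhere outside the cortex it had too few UMI to be tested. Psmb10 overlapped between the groups in the striatum, basal forebrain and fibre tracts. In the claustrum it was below in both rNLS8 sections, at 75.5 and 79.3 CPM against 92.9 and 81.4 CPM. In the meninges it was above, at 66.7 and 91.3 CPM against 56.8 and 62.4 CPM (0.40, adjusted p = 0.703). Psme2 in the claustrum gave 13.3 and 12.9 CPM in controls and 2.24 and 8.35 CPM in rNLS8, the former of these from 3 UMI (-1.22, adjusted p = 0.334). No member was called in these 5 regions, where 0.475% of genes passed in the striatum, 0.00951% in the basal forebrain, 0.205% in the fibre tracts, 0.0542% in the meninges and 0.266% in the claustrum.

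The difference between the rNLS8 effect in cortical and in all other spots was tested directly, with section as a block. The other spots included those in clusters without a region name. Such spots made up 38.35% and 40.68% of the control sections and 26.72% and 36.8% of the rNLS8 sections. The difference passed for 1.24% of 12971 genes and for none of the 47 members tested. By an unadjusted p under 0.05, 12.9% of genes passed. The difference was 0.56 for Psmb8 (SE 0.255, edgeR adjusted p = 0.378), 0.59 for Psmb9 (SE 0.407, adjusted p = 0.593) and -0.36 for Psmb10 (SE 0.116, adjusted p = 0.178). An effect of Psmb8 particular to the cortex was therefore not shown.

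**Figure D3:**
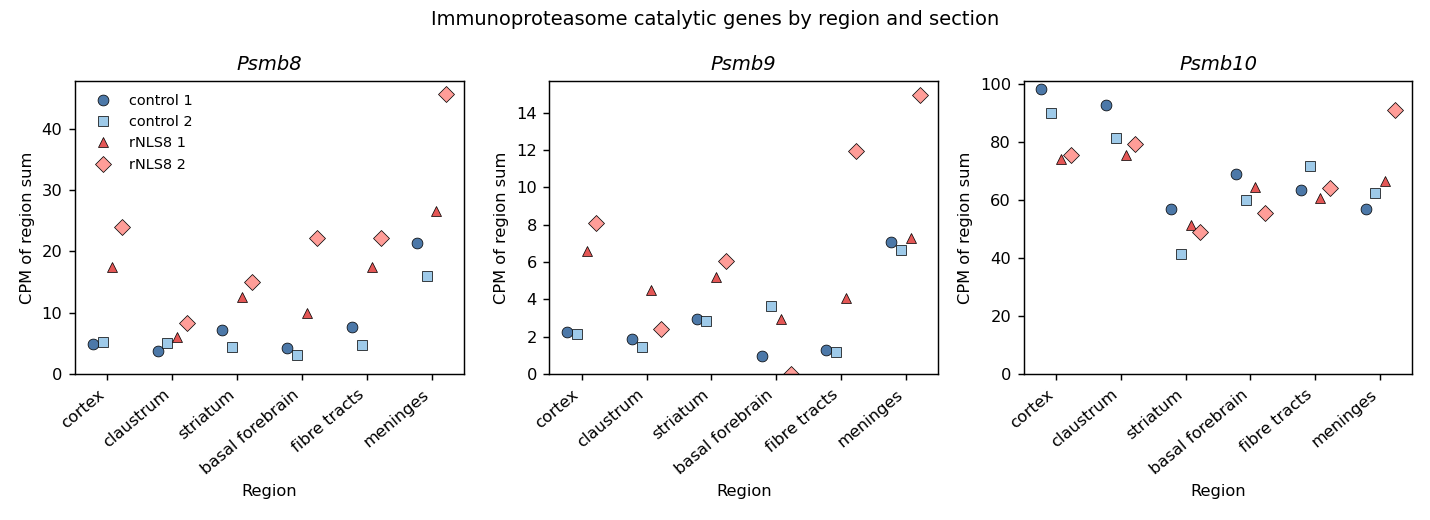
CPM of Psmb8, Psmb9 and Psmb10 in 6 marker-defined regions, with 1 point per section and axes from 0. Psmb8 is higher in both rNLS8 sections in every region, and Psmb10 is lower in rNLS8 cortex (74.1 and 75.6, against 98.3 and 90.1) and not in the meninges.

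The spread of the signal over the tissue was measured as the share of cortical spots with a UMI, after each spot was thinned to 3000 UMI. Psmb8 was found in 1.84% and 2.00% of control spots and in 5.50% and 7.46% of rNLS8 spots. The 95% Wilson intervals, which cover counting error only, were 1.08 to 3.12% and 1.15 to 3.47% in controls and 3.98 to 7.56% and 5.69 to 9.72% in rNLS8. Psmb9 was found in 0.424% and 1.17% of control spots and in 2.52% and 2.74% of rNLS8 spots. Psmb10 was found in 24.3% and 24.4% of control spots and in 20.9% and 20.4% of rNLS8 spots. For these 3 genes the sections of the groups did not overlap, and the exact permutation p was 0.333 in each case. The same held for the constitutive Psmb5 (2.97% and 4.17% in controls, 6.45% and 4.87% in rNLS8) and Psmb7 (15.1% and 18.9%, against 20.6% and 22.5%). The share of all genes with such an order was not computed for spots. Any of the 5 immunoproteasome and activator genes was found in 38.8% and 39.7% of control and 38.1% and 41.2% of rNLS8 spots, which overlapped (exact permutation p = 1), since Psmb10 and Psme1 supplied most of these spots. Thinning left out 10 and 3 cortical spots of the control sections and 0 and 2 of the rNLS8 sections. Without it, Psmb8 was found in 3.34% and 4.82% of control and 17.6% and 19.1% of rNLS8 cortical spots.

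**Figure D4:**
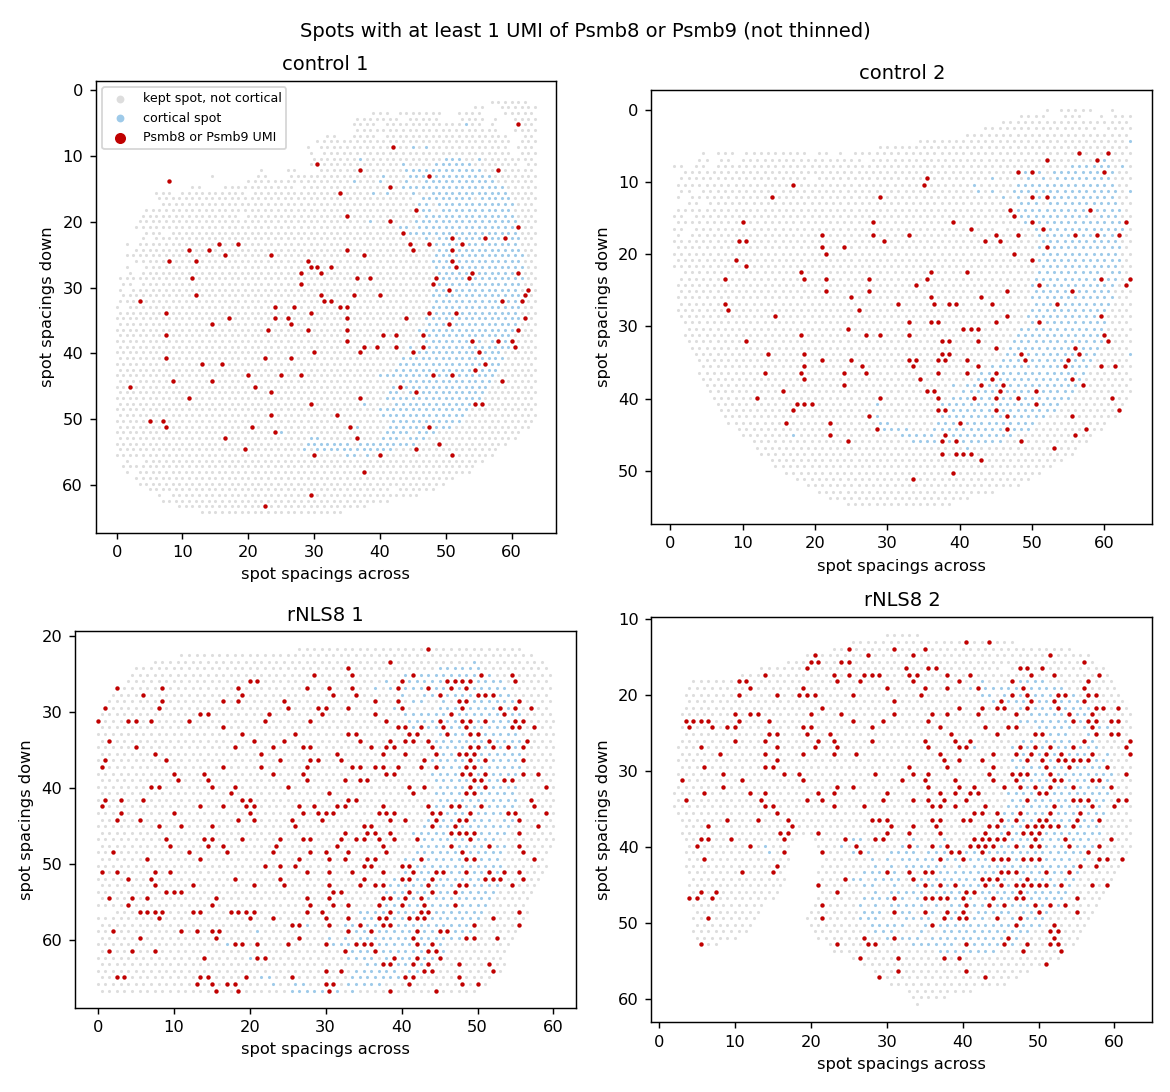
Kept spots of the 4 sections on the array grid, in units of spot spacing, with cortical spots in blue and spots with at least 1 UMI of Psmb8 or Psmb9 in red, not thinned. In rNLS8 cortex 22.6% and 24.4% of spots are red, against 4.74% and 6.81% in controls. Each region compared holds red spots in all 4 sections.

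Within each section, cortical spots were ranked by the UMI of marker lists at 3000 UMI per spot, and the top and bottom quartiles were compared as a description. By microglial markers, Psmb8 and Psmb9 together had 15 UMI in the top and 9 in the bottom quartile of rNLS8 replicate 1, and 32 and 10 in rNLS8 replicate 2. The exact 95% Poisson intervals for the latter were 21.9 to 45.2 and 4.8 to 18.4 UMI, and those of replicate 1 overlapped. By astrocyte markers the counts were 15 and 6, then 24 and 5. Top over bottom was thus 2.5 and 4.8, against 1.67 and 3.2 by microglial markers. By interferon response genes the counts were 14 and 13, then 28 and 10. The intervals of replicate 2 were also apart for astrocyte markers (15.4 to 35.7 and 1.62 to 11.7) and interferon response genes (18.6 to 40.5 and 4.8 to 18.4). In replicate 1 they overlapped for both lists. By neuronal markers the counts were 8 and 15, then 14 and 16, so the top quartile was not the higher one. In control sections no quartile held more than 9 UMI. The other 43 members summed were nearly level between quartiles, with ratios of top to bottom from 0.95 to 1.09 over all lists and sections.

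**Figure D5:**
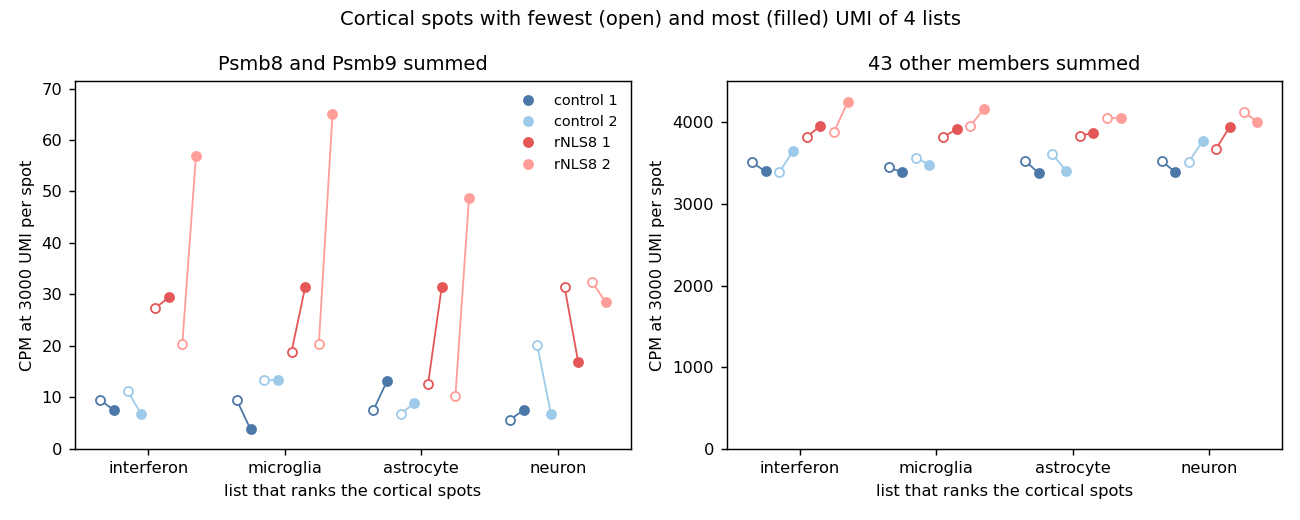
CPM of Psmb8 and Psmb9 summed and of the other 43 members summed, in the quartiles of cortical spots with fewest (open) and most (filled) UMI of 4 gene lists, per section. In rNLS8 replicate 2 Psmb8 and Psmb9 run from 20.3 to 65.0 CPM along the microglial list and from 10.2 to 48.8 along the astrocyte list. They run from 20.3 to 56.9 CPM along the interferon list and from 32.5 to 28.5 along the neuronal list. The other members stay between 3380 and 4250 CPM in every section.

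Some cell type lists moved along with Psmb8 and others did not. In the cortex 10 of 12 microglial markers were higher in both rNLS8 sections, an order held by 29.1% of all genes. Of these markers 6 passed as higher, beside 1.2% of all genes. Their summed level was 439.8 and 564 CPM in controls and 1193 and 1933 CPM in rNLS8. All 15 interferon response genes measured were higher in both rNLS8 sections and 12 passed, with sums of 107 and 107 CPM against 447 and 722 CPM. Neuronal markers summed to 16040 and 13680 CPM in controls and 9510 and 9377 CPM in rNLS8. Of these 10 markers Nefl and Snap25 passed as lower and 8 did not pass, while 2.9% of all genes passed in either direction. Only 4 of the 10 were below in both rNLS8 sections, an order held by 26.6% of all genes. Of 8 T cell and leukocyte markers, Ccl5 and Ptprc were the only ones with enough UMI to be tested, and both passed as higher. Cd3e, Cd8a and Nkg7 were at 0 UMI in the cortex of all 4 sections, and the list summed to 5.14 and 4.32 CPM against 18.6 and 26.5 CPM. Astrocyte markers summed to 4791 and 5132 CPM in controls and 5088 and 6061 CPM in rNLS8, with Gfap alone of 9 passing. None of the 7 oligodendrocyte markers passed, with sums of 10330 and 7652 CPM against 8751 and 8505 CPM. None of the 6 endothelial and mural markers tested passed, with sums of 311 and 256 CPM against 261 and 269 CPM. In the cortex rNLS8 replicate 2 had both the highest Psmb8 and the highest microglial and interferon sums. In whole sections, Psmb8 and these sums ranked the control sections in opposite orders. The part of microglia and other cell types in the Psmb8 result was not tested.

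Genes that work with the proteasome were read from lists in the same cortical fit. In the class I antigen path, which carries proteasome peptides to the cell surface, B2m, H2-K1 and Tapbp rose. B2m, the light chain of class I molecules, went from 39.3 and 76.5 CPM to 428 and 563 CPM (log2 fold change 3.09, edgeR adjusted p = 0.0169). H2-K1, a heavy chain, went from 1.23 and 0.665 CPM to 5.91 and 10.8 CPM (3.13, adjusted p = 0.0361). Tapbp, which loads peptide, went from 70.5 and 63.5 CPM to 116 and 156 CPM (1.02, adjusted p = 0.0416). Tap1, the neighbour of Psmb9, gave 0.617 and 0.665 CPM in controls and 2.34 and 7.76 CPM in rNLS8 and did not pass (2.91, adjusted p = 0.0852). No gene of this list passed as lower.

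Among 22 tested partners of the proteasome outside the 48 genes, the edgeR test called none, and their median log2 fold change was -0.04. Nfe2l1, the factor that raises proteasome genes when activity falls short, gave 190 and 286 CPM in control cortex and 332 and 335 CPM in rNLS8 (0.49, adjusted p = 0.229). Usp14, a deubiquitinase of the cap, gave 165 and 226 CPM in controls and 235 and 218 CPM in rNLS8. Adrm1, a ubiquitin receptor, gave 3.70 and 2.16 CPM in controls and 0.825 and 0.675 CPM in rNLS8 (-1.91, adjusted p = 0.113). Pomp was not analysed here. None of the 5 ubiquitin genes passed. Ubb, a polyubiquitin gene, gave 15.01 and 15.8 CPM in controls and 26.7 and 27.0 CPM in rNLS8 (0.80, adjusted p = 0.0785). Sqstm1, the aggregate receptor p62, gave 993 and 961 CPM in controls and 941 and 962 CPM in rNLS8, and none of the 9 aggregate handling genes tested passed.

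The deposited spatial score, Moran's I, measures how alike neighbouring spots are for a gene, and it moves with the gene's level. The median over members was 0.022 and 0.018 in controls and 0.014 and 0.008 in rNLS8, beside 0.011, 0.012, 0.009 and 0.006 over all genes. Psmb4 had the highest score of any member in both controls, 0.111 and 0.087, and gave 0.048 and 0.021 in rNLS8. Psmb8 gave 0.006 and 0.012 in controls and 0.016 and 0.009 in rNLS8. Psmb9 stayed at or below -0.002 in all 4 sections. These scores are descriptions, with no test.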

How the data were processed

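Visium counts of 2 control and 2 rNLS8 mouse brain sections were used. The authors deposited 1 matrix of unnormalised UMI counts per section, made with Space Ranger 2.1.0 per the file headers, with build mm10 per the submitters' processing notes. A deposited table per section gives each gene a spatial score (Moran's I). Spots with at least 500 UMI were kept (12802). Barcodes mark array positions (1823 were kept in all 4 sections). Spots were clustered in scanpy 1.11.5 with leidenalg 0.10.2 (2000 variable genes without the members and response lists, genes centred within sections, 30 components, 15 neighbours, resolution 1) and named by marker lists after the clusters were seen.

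UMI were summed per section and region and fitted in edgeR 4.0.16 (R 4.3.3) by quasi-likelihood after trimmed-mean scaling and the default filter, with Benjamini-Hochberg adjustment over all genes and a threshold of 0.05. CPM are these scaled counts. Levels of different genes are not compared, since probes differ. Alternatives were DESeq2 1.42.0, its size factors, no filter, other spot minimums and regions, the replicate number as a block, and each section left out. Shares and ratios were compared by exact permutation in scipy 1.17.1. The fit was tested on counts simulated around the mean of each gene with its fitted dispersion. In the cortex 54% of 2-fold and 99% of 4-fold changes were recovered, with 16 false calls. In whole sections 44% and 94% were recovered, with 17 false calls, whereas the real fit called 0 of 13444 genes there. The simulation left out differences in cluster make-up between sections, so these shares do not give the power of the real fits. Same-numbered sections did not deviate together over all genes (correlation -0.067 in the cortex over 11871 genes), and the main fits did not take the numbers as pairs. A correlation over all genes cannot show whether the numbers mark pairs or a shared batch. Named genes were the 5 immunoproteasome and activator genes, Psmb5, Psmb6 and Psmb7, all called members, the 5 highest and 5 lowest other members per main comparison, and a fixed set of partner genes, some of which are not reported here. The members, lists and motifs were chosen with earlier results of these data known.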

Additional observations from a re-analysis of the deposited data

Results flagged for a closer look

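Psmb10 had every rNLS8 section above every control section in the meninges and below in the cortex, a gap of 0.73 between the log2 fold changes of 0.40 and -0.33. The same opposition held between the meninges and the claustrum (-0.17), a gap of 0.57. Psmb6 was above in the meninges (0.07) and below in the striatum (-0.19), a gap of 0.26. These differences between pairs of regions were not tested. The meningeal sums of Psmb10 rest on 16, 47, 55 and 116 UMI.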

How the results depend on the processing

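Of 502 values of single genes under alternatives, 454 kept their direction and side of the threshold, 22 passed only under the alternative, 2 (both Psmb8 in the cortex, described above) passed only in the main test, and 24 turned sign. In whole sections 1 member was called with no filter and by DESeq2, against 0. In the cortex 2 were called with no filter and 2 with the replicate block (Psmb8 and Psmb9), against 1, and 0 in the upper-layer cluster, an alternative chosen after seeing the data. In the other regions 2 calls appeared with no filter, against 0. The replicate block changed no other count of member calls. Over all genes it raised the calls from 344 to 1127 in the cortex and from 0 to 78 in whole sections. Whether the numbers mark pairs of sections is not known. In the comparison of cortical with other spots the section block holds the replicate number, and 0 members were called.

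Leaving out 1 section at a time gave 0 to 3 members in whole sections, 0 to 14 in the cortex, 0 to 5 in the other regions and 0 to 0 between cortical and other spots. The fits with 3, 14 and 5 members called 1839, 4067 and 5400 genes. It gave log2 ratio differences of 0.867 to 1.67 (Psmb8 to Psmb5), 1.03 to 1.66 (Psmb9 to Psmb6) and -0.58 to 0.0742 (Psmb10 to Psmb7), which turns sign. The difference in the share of cortical spots with any of the 5 genes was 0.362 percentage points, ran from -1.24 to 1.96 with sections left out, and was 7.67 without thinning. The cause was not tested.

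Sign changes outside the left-out sections were Psmb6 in whole sections with equal weight of regions (0.01), Psme1 in the cortex with DESeq2 size factors (-0.01), by DESeq2 (-0.02), at resolution 0.5 (-0.08) and in the upper layers (-0.32), Psme2 at resolution 0.5 (-0.11), and Psmb6 in the cortex under the same 4 settings (-0.01, -0.01, -0.0008 and -0.06). With sections left out, the ranges were -0.25 to 0.04 for Psmb10, -0.24 to 0.19 for Psme1, -0.04 to 0.33 for Psmb7 and -0.58 to 0.04 for Psma1 in whole sections. In the cortex they were -0.21 to 0.2 for Psme1, -0.07 to 0.33 for Psme2, -0.04 to 0.59 for Psmb5, -0.04 to 0.07 for Psmb6 and -0.05 to 0.46 for Psmb7. For Psmb10 they were -0.21 to 0.28 in the striatum and -0.22 to 0.04 in the basal forebrain. None of these genes' sign changes passed the threshold. Psmb8 and Psmb9 counts of 0 to 58 UMI per section in the smaller regions limit what can be seen there.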

Other observations

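H2-D1, a class I heavy chain gene on the same chromosome as Psmb8 and Psmb9, was found almost only in the replicate 1 sections of both groups. In whole sections it had 268 UMI in control replicate 1 and 1022 in rNLS8 replicate 1, against 0 in control replicate 2 and 1 in rNLS8 replicate 2. Between the replicate 1 sections the rNLS8 count was thus the higher, with 28055286 UMI kept in all, against 19006046 in the control. Psmb8 and Psmb9 did not follow the number in whole sections or in the cortex. The cause was not tested.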
